A study of Drosophila melanogaster with 23 samples.

Results

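Transcription start sites on the heterochromatic scaffolds that belong to no annotated gene were followed through embryogenesis. Start sites had been grouped by the authors into transcription start site clusters (TSCs), narrow stretches of genome where the 5′ ends of capped transcripts pile up. The members described here are the TSCs that carry no gene identifier and lie on the release 5 scaffolds U, Uextra, 2LHet, 2RHet, 3LHet, 3RHet, XHet or YHet. There were 485 of them among 24730 TSCs, or 1.96%. For comparison, 3110 TSCs without a gene lay elsewhere in the genome, 157 TSCs with a gene lay on the same scaffolds, and 20978 TSCs with a gene lay elsewhere.

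The samples were whole embryos of Drosophila melanogaster of strain y; cn bw sp, collected in 23 consecutive windows of 1 h that run from 0-1 h to 22-23 h after egg laying. All windows share this genotype, and no treatment was applied. Capped 5′ ends were sequenced with RAMPAGE, which reads cDNA that extends to the cap. Each window gave 1 library of a second replicate series, so a value of 1 window has no replicate, and the error of a change over time is the scatter of libraries around a smooth curve. Each sample was barcoded at reverse transcription, after which all were pooled and sequenced together. Whether collection and extraction were done in batches is not given in the sources used here. Levels are RPM, reads scaled to a common total of the reads counted in TSCs of a library. The shallowest library, of 5-6 h, held 286206 reads and the deepest, of 1-2 h, held 14705005. A count of 0 allows up to 3 reads, which is 10.5 RPM at 5-6 h and 0.204 RPM at 1-2 h. In whole embryos, fewer active cells and less RNA per cell cannot be told apart.

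Heterochromatin is the compact, repeat-rich chromatin around centromeres and telomeres and along the Y chromosome, packaged by HP1 proteins that bind methylated histone H3. The Het scaffolds hold the part of it that could be assigned to a chromosome arm, while U and Uextra gather sequence that could not be placed. Most of this DNA consists of transposon remnants and other repeats, yet it also holds essential genes and piRNA clusters, which are transcribed into precursors of small RNAs that silence transposons. In the fly embryo, maternal transcripts are loaded before fertilization and the zygotic genome is switched on during the first hours of development. How the authors' mapping treated reads that match several copies of a repeat is not given in the sources used here, so the reads of a site can include reads from copies elsewhere.

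Uextra held 218 members with 52011 reads and no TSC with a gene. Scaffold U held 104 members with 73394 reads, beside 14 TSCs with a gene. These 2 scaffolds together carried most member reads, with 50.9% on U and 36.1% on Uextra. The Het scaffolds followed with 55 members on 3LHet, 50 on 2RHet, 34 on 3RHet, 15 on 2LHet, 7 on XHet and 2 on YHet. On 2RHet the members had 7314 reads and on 3LHet 5313, whereas the 2 YHet members had 68 reads in all 23 libraries together.

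Members were faint and narrow. Their median was 43 reads over the series, with quartiles of 21 and 113. This compares with a median of 28 reads in other TSCs without a gene, 150 in TSCs with a gene on the same scaffolds and 271 in TSCs with a gene elsewhere. Median width was 14 bp, close to the 15 bp of other TSCs without a gene, while both sets of TSCs with a gene had a median of 54 bp. There were 77 members of 3 bp or less and 27 of more than 100 bp. Reads were concentrated in few sites. The 130 members with at least 100 reads held 91.1% of all 144175 member reads, and 355 members had fewer than 100. The 12 members with the highest summed RPM alone held 58.2% of member reads. Of these 12, 8 lay in a single block on U and 4 on Uextra.

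The block spans 16298 bp at U:5288805-5305102 and holds 20 members and no TSC with a gene. Its sequence was not examined, so what this stretch encodes is not known here. Its count among heterochromatic sites rests only on its scaffold, U, which gathers unplaced sequence. Whether it is heterochromatin was not tested, and its sites enter the pooled values of the members except where the block is left out. The nearest TSC with a gene, of FBgn0085780, lies 1630914 bp away along the scaffold. Since U and Uextra gather unplaced sequence, distances along them need not be distances in the genome. Members were joined into one group where less than 10000 bp separated them, a limit chosen after the positions were seen. By that limit 302 members stood alone, and no group but the block had more than 4 members. The block collected 63458 reads, 44.0% of all member reads, and 16 of its 20 members had at least 100. Its sites were also wider than the others, with a median width of 109.5 bp.

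Strand was not mixed evenly along the block. Its lower-coordinate portion, U:5288805-5293615, held 11 sites, 8 of them on the plus strand with 16329 reads against 3 on the minus strand with 164. The higher-coordinate portion, U:5295516-5305102, held 9 sites, 8 of them on the minus strand with 43645 reads and 1 on the plus strand with 3320. The prevailing strands of the portions therefore run toward each other. The plus-strand site of the higher portion, U:5299021-5299716, lies between minus-strand sites, so the strand changed again within that portion. This split into portions was drawn after the positions were seen and carries no test.

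**Figure D1:**
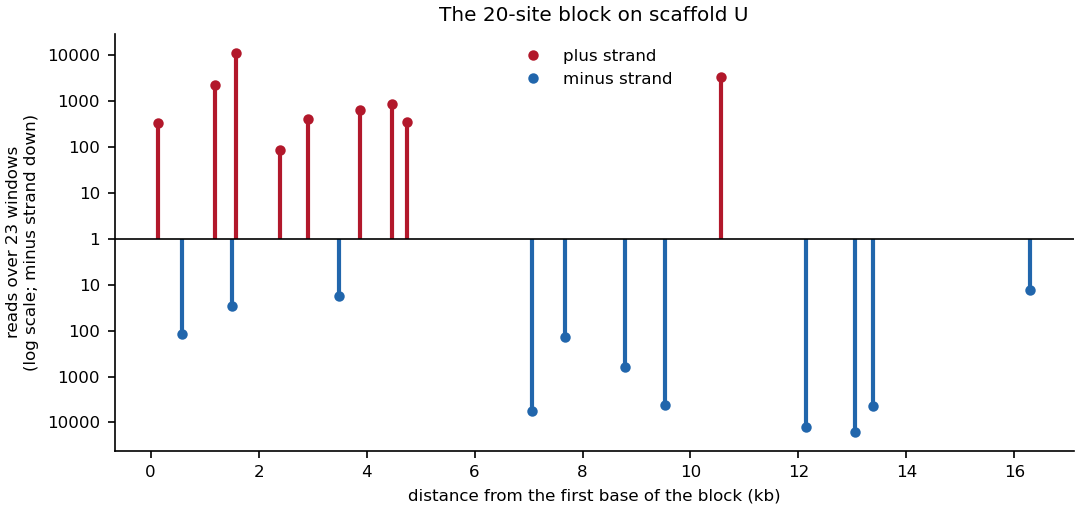
Reads of each of the 20 sites of the block on scaffold U, summed over 23 windows on a log scale, against the distance of the site's centre from the first base of the block in kb. Plus-strand sites are drawn upward and minus-strand sites downward, and the 8 plus-strand sites of the lower-coordinate portion face the 8 minus-strand sites of the other.

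The strongest member of all was U:5301818-5301901 on the minus strand, with 16038 reads. Its level was lowest at 17-18 h with 55.1 RPM, had a median of 198 RPM over the windows, and was highest at 2-3 h with 510 RPM (95% exact interval 471 to 550). Window by window it rose from 131 RPM at 0-1 h through 308 at 1-2 h to that maximum and 469 at 3-4 h. It then read 248 RPM at 4-5 h and 444 in the next window, stayed between 198 and 381 from 6-7 h to 12-13 h, and lay between 55.1 and 194 from 13-14 h on. In RPM its libraries before 13 h, apart from 0-1 h, were thus all above every later one. This cut was chosen after the values were seen, and it does not hold with the TMM scaling of library sizes given below. The fitted range over time, the highest minus the lowest value of the curve, was 2.27 on the log2 scale (SE 0.33), with a limma adjusted p of 3.7e-06.

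The second site, U:5300689-5301202 on the same strand, had 12755 reads. From 187 RPM at 0-1 h it came to 438 at 3-4 h, and its lowest level was 54.4 RPM at 21-22 h. Its fitted range was 2.23 (SE 0.40, limma adjusted p = 1.0e-06). On the plus strand, U:5290341-5290420 led with 11377 reads. The level was 84.9 RPM at 0-1 h, 321 at 3-4 h (95% exact interval 295 to 348) and, at its lowest, 26.9 at 14-15 h, with a fitted range of 1.55 (SE 0.37, limma adjusted p = 0.0044). Sites on both strands were therefore highest at 2-3 h or 3-4 h.

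The other 5 sites of the block among the 12 strongest had maxima between 76.2 and 234 RPM. U:5298314-5298369 was the most variable of them. From 18.4 RPM at 0-1 h it climbed to 234 at 2-3 h, held 189 at 3-4 h, dropped to 26.7 at 4-5 h and was back at 220 in the next window, with no read at 14-15 h. U:5289866-5290139, on the other strand and over 8 kb away, went through the same sequence of windows with 13.6, 124, 101, 11.4 and 126 RPM. The Pearson correlation of log2(RPM + 1) of these sites over 23 windows was 0.946, and in both, the level at 4-5 h was under that of the window before and after. U:5295516-5296225 was highest at 2-3 h with 202 RPM, and U:5302074-5302294 at 5-6 h with 126 RPM. U:5299021-5299716, the single plus-strand site of its portion, departed from the rest. Levels of 75.3 RPM at 1-2 h and 76.2 at 3-4 h contrasted with 7.0 RPM (2 reads) at 5-6 h, where the other named sites of the block were at 126 RPM or more.

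Among the 45 members with at least 500 reads, 11 were in the block, and their 55 pairs had a median correlation over the 23 windows of 0.836, from 0.411 to 0.946. The 561 pairs with both sites outside the block had a median of 0.368, and the 374 mixed pairs 0.389. These correlations are descriptions over the same 23 libraries, which the sites share. No 2 members had identical reads in all windows. Outside the members, the profile of LBR, which encodes the lamin B receptor of the inner nuclear membrane, was among the 3 most like genes for 5 of the 8 named block sites (r = 0.879 to 0.919 over 23 windows).

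Both strands of the block moved largely together, with a change in balance. The plus strand gave 24.5% of block reads at 0-1 h (95% Wilson interval 23.3 to 25.7) and 33.5% at 6-7 h (32.3 to 34.7). Its largest share was 40.0% at 17-18 h (38.0 to 42.1). The lowest share, 22.8% at 14-15 h, rests on 149 reads and has an interval of 16.8 to 30.2. Intervals of reads cover counting error only.

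**Figure D2:**
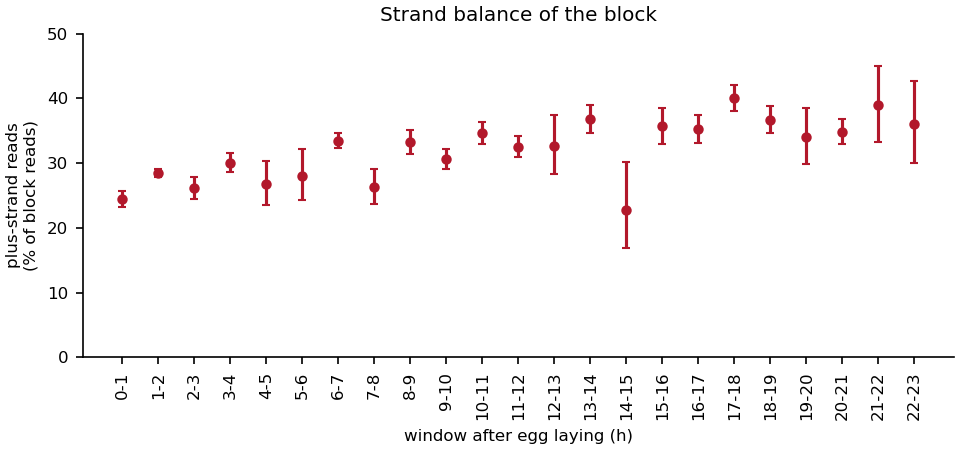
Share of block reads that came from the plus strand in each of the 23 windows, in percent, with 95% Wilson intervals as bars. The points lie between 22.8% and 40.0%, so the minus strand gave more reads in all 23 libraries.

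Outside the block, the strongest sites lay on Uextra, where none has a gene TSC on its scaffold. Uextra:12461226-12461257 on the minus strand had 8539 reads. Its level was 168 RPM at 0-1 h and 249 at 2-3 h, and after 108 RPM at 4-5 h it stood at 255 and 246 RPM in the next windows. The lowest value was 13.8 RPM at 20-21 h. All 9 libraries from 14-15 h on were at 26.3 RPM or less and all 14 earlier ones at 47.9 or more. The early and late windows thus did not overlap in RPM, by a cut chosen after the values were seen and without TMM scaling. The fitted range was 3.49 (SE 0.21, limma adjusted p = 3.8e-13). Uextra:21487241-21487258 on the plus strand had a similar course, with 87.2 RPM at 0-1 h, 304 at 2-3 h and 3.92 at 20-21 h, and a correlation of 0.967 with the former site. Its curve had a range of 4.06 (SE 0.32, limma adjusted p = 8.9e-11). The genes most like the first were scra, which encodes the septum protein anillin (r = 0.975), and Mapmodulin (r = 0.971), and the gene most like the second was Ing5 (r = 0.971), each over 23 windows.

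Uextra:9617587-9617602, a 16 bp site on the minus strand with 6750 reads, showed the highest level of any member. It stood at 674 RPM at 4-5 h (531 reads, 95% exact interval 618 to 734), between 105 RPM at 3-4 h and 265 at 5-6 h. Its later course was uneven, with 9.38 RPM at 8-9 h, 145 at 9-10 h and no read at 19-20 h. The fitted range of 5.99 had an SE of 1.13 (limma adjusted p = 0.00017), the largest SE among the named members. Uextra:4877866-4877881 also had its maximum at 4-5 h, with 188 RPM against 7.50 at 0-1 h. It dropped to 4.88 RPM at 8-9 h and returned to 34.2 in the next window. Over time the fit spanned 6.45 (SE 0.81, limma adjusted p = 6.3e-08). Both sites shared the low value at 8-9 h, a library of 2664024 reads. Their correlation over the windows was 0.871.

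A pair of Uextra sites was low, though read, before 3 h. Uextra:1182090-1182437 was at 7.82 RPM or less in its first 3 windows (22 reads at 0-1 h), then at 56.5 RPM at 3-4 h and at 122 RPM at 5-6 h (35 reads). Its fitted range was 5.07 (SE 0.65, limma adjusted p = 1.6e-07). Uextra:1148032-1148121 had 0.847 RPM at 0-1 h and 17.0 at 3-4 h. Its maximum of 45.4 RPM at 5-6 h came from only 13 reads, and it was still at 41.0 RPM at 7-8 h. The fit spanned 5.41 (SE 0.57, limma adjusted p = 1.0e-09). The profiles most like them over 23 windows were those of Toll-6, a receptor of the Toll family expressed in embryonic stripes (r = 0.931), and of drl, a receptor tyrosine kinase of axon guidance (r = 0.958).

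A further group of sites came on in mid-embryogenesis. U:6434173-6434228, the largest of them with 1963 reads, had 0.605 RPM at 0-1 h and no read at 2-3 h or 4-5 h. It climbed through 10.1 RPM at 7-8 h and 37.6 at 9-10 h to 85.5 at 11-12 h (95% exact interval 74.4 to 97.9). It was still at 38.8 RPM at 17-18 h and fell to 5.25 at 22-23 h. Its fitted range was 6.26 (SE 0.52, limma adjusted p = 2.2e-11). 2RHet:992003-992027 followed the same course on another scaffold, from 0.121 RPM at 0-1 h to 34.9 at 11-12 h, and the correlation of both sites was 0.974, the highest of any pair outside the block. 3LHet:1104710-1104727 reached 30.3 RPM and U:188661-188679 reached 32.4 RPM, both at 10-11 h, from 0.121 and 0.242 RPM at 0-1 h. Fitted ranges of these 3 smaller sites were between 4.54 and 5.26.

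The last group had its fitted maximum at 16-23 h. Uextra:3700555-3700576 was at or under 1.79 RPM in every window up to 15-16 h and then climbed from 11.5 RPM at 16-17 h to 16.8 RPM at 18-19 h (114 reads). The curve's range was 3.78 (SE 0.51, limma adjusted p = 2.6e-07), and 96.7% of its summed RPM fell within 8 consecutive windows. U:7531788-7531881 rose earlier, to 10.0 RPM at 6-7 h, and had its maximum of 18.9 RPM at 21-22 h from 17 reads. 2RHet:1730237-1730298 was present early, with 3.51 RPM at 0-1 h, nearly absent at 6-7 h with 0.150 RPM, and highest at 14-15 h with 21.9 RPM (13 reads). U:1242940-1243107, highest at 19-20 h with 15.4 RPM from 12 reads, lies 187 bp from a TSC of CG41520.

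**Figure D3:**
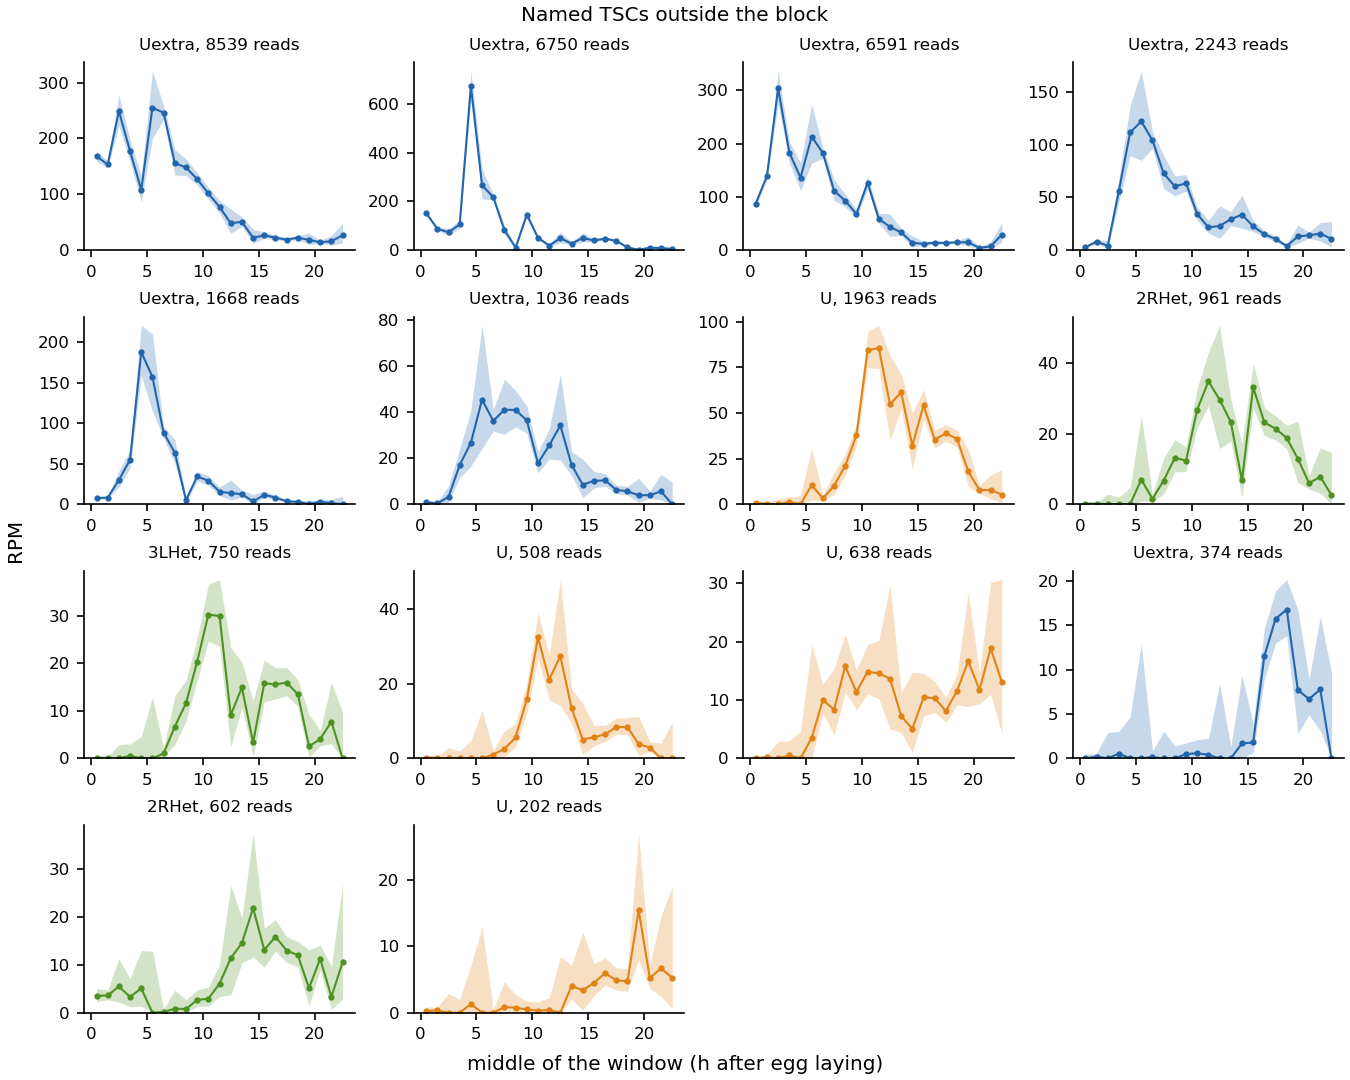
RPM of the 14 named sites outside the block over 23 windows, each named by its scaffold and total reads, on linear axes that differ between panels. Lines join the libraries (blue for Uextra, orange for U, green for the Het scaffolds), bands are 95% exact Poisson intervals of the reads, and the 6 Uextra sites shown first are highest between 2-3 h and 5-6 h while the other 8 are highest at 10-11 h or later.

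Of the 130 members with at least 100 reads, 85 (65.4%) peaked at 0-8 h. Another 35 (26.9%) peaked in the middle of the series, at 8-16 h, and 10 (7.69%) in its last part, at 16-23 h. Over all TSCs with that many reads the shares were 52.7%, 25.9% and 21.5%, and over other TSCs without a gene 42.1%, 32.6% and 25.3%. When library sizes were scaled by TMM, a trimmed mean of TSC ratios, the members split into 82, 19 and 29. Early maxima prevailed among members under either scaling, and late ones were rare only without TMM. The other TSCs were not split with TMM, so the members cannot be set against them under that scaling. The windows 4-5 h and 5-6 h held 24 and 25 maxima, but only 10 of the latter rested on at least 10 reads. Thinned to the depth of the shallowest library, the data gave 14 and 17, and the most maxima, 22, then fell at 3-4 h, where 11 had been without thinning.

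By location, all 16 block sites with 100 reads were highest at 0-8 h, as were 45 of 56 on Uextra (80.4%). On the Het scaffolds 19 of 40 (47.5%) were highest at 0-8 h and 18 (45.0%) at 8-16 h. On U outside the block 5 of 18 were highest at 0-8 h, 9 at 8-16 h and the remaining 4 at 16-23 h. A single member, 0.769%, was highest at 0-1 h, against 11.2% of all TSCs.

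The earliest windows were sequenced most deeply, so silence there can be seen well. The libraries of 0-1 h and 1-2 h together held 22968696 reads, in which 3 reads are 0.131 RPM. In them, 32 of 130 members (24.6%) had 3 reads or fewer and 9 had none. The share with 3 reads or fewer was 44.4% on U outside the block, 35.0% on the Het scaffolds, 17.9% on Uextra and 0 of 16 in the block. It was 18.8% over all TSCs with at least 100 reads and 37.9% in other TSCs without a gene.

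**Figure D4:**
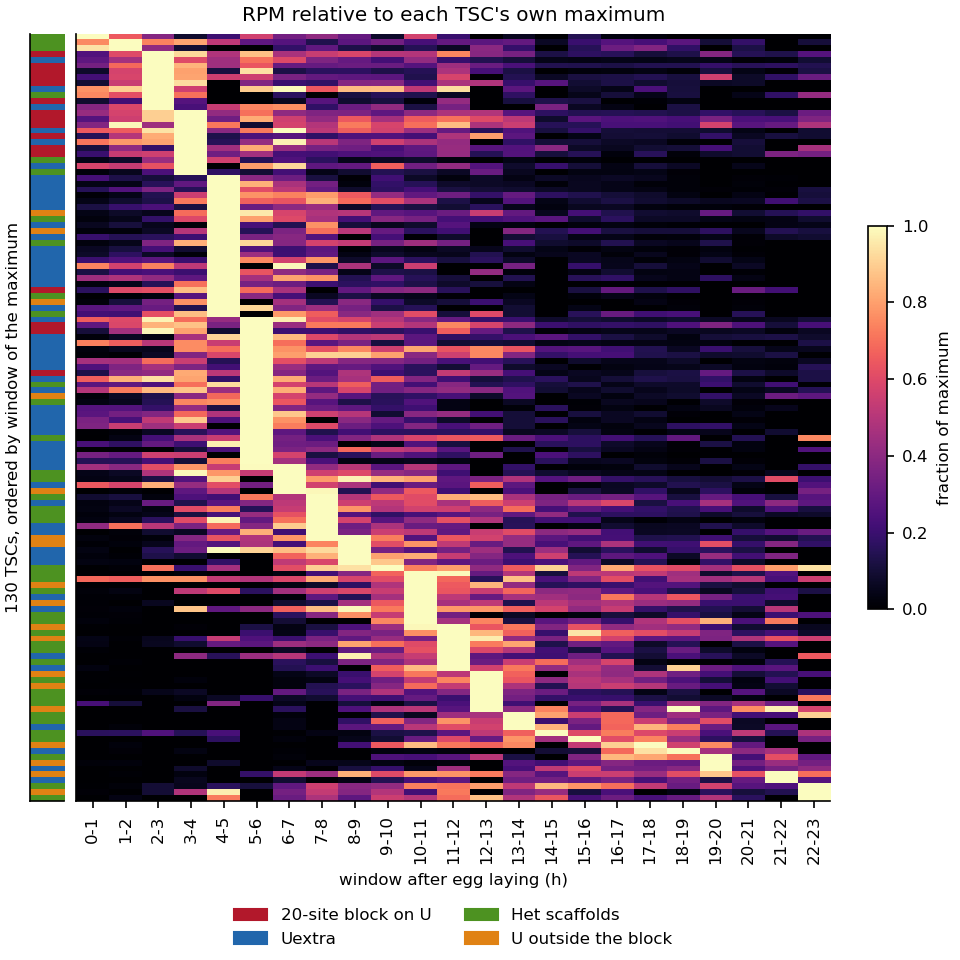
RPM of the 130 members with at least 100 reads in 23 windows, each row divided by its own maximum and rows ordered by the window of that maximum, with the location of each site in the colour strip at the left. The wide steps at 4-5 h and 5-6 h are the 24 and 25 members highest there, and block sites fill much of the rows above them.

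By the study's definitions, a TSC is housekeeping when its highest level is at least 10 RPM and under 5 times its lowest, and developmentally regulated when at least 60% of its summed RPM falls within 8 consecutive windows. There were 106 members (21.9%) that came to 10 RPM or more, of which 82 had 10 or more reads in the highest window. No member was housekeeping, 86 (81.1%) were regulated and 20 were neither, 12 of them in the block. Nor was any of 380 other TSCs without a gene at that level, while 901 of 12227 over all TSCs (7.37%) were. A TSC with no read in some window cannot be housekeeping by this definition. Only 27 of 485 members had reads in every window, as had 28 of 3110 other TSCs without a gene and 5939 of all 24730 TSCs. For faint sites the absence of the class is therefore largely set by depth. Of TSCs with a gene on the same scaffolds, 17 were housekeeping and 37.5% of those with at least 10 RPM were regulated. Regulated were also 90.0% of other TSCs without a gene and 53.0% of all TSCs. With TMM, 63 of 94 members were regulated. The other TSCs were not classed with TMM, so this count cannot be set against them.

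Stage specificity was measured as the Shannon entropy of a profile, which is 0 for a TSC read in 1 window and 4.52 bits for equal levels in all 23. The median of 374 members with at least 2 RPM was 3.31 bits (95% interval of the median 3.20 to 3.37). Other TSCs without a gene had 2.83, TSCs with a gene on the same scaffolds 3.70 and those elsewhere 3.74. Entropy depends on reads, so TSCs with at least 50 were also thinned to 50 reads each. In these 217 members the median was 3.62 bits before thinning and 3.31 after it. The other sets in the same order had 3.36, 3.89 and 3.89 before and 3.13, 3.44 and 3.32 after, and all such TSCs 3.84 and 3.31.

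Time dependence was tested with limma on log2(RPM + 1) as a smooth curve over the 23 windows, in all 14173 TSCs with at least 100 reads over the series. Of these, 90.7% were called at an adjusted p below 0.05. Of the 130 members tested, 127 were called (97.7%). A call with a fitted range of at least 5-fold was made for 97 of the 130 (74.6%), against 63.8% of all tested TSCs and 77.3% of other TSCs without a gene. Members with fewer reads were not tested, and since the filter admits a site by the windows where it is high, the share of calls describes only these 130. The 3 not called, named after their values were seen, were 3RHet:1768365-1768474 with 698 reads and an adjusted p of 0.22, U:8849907-8849928 (adjusted p = 0.057) and 3LHet:685772-685790 (adjusted p = 0.058), all by limma. edgeR on the recovered reads called 117 members (90.0%), against 82.1% of all tested TSCs and 94.9% of other TSCs without a gene.

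The scaling between libraries bears on all of these ranges. TMM factors lay between 0.517 at 17-18 h and 1.42 at 5-6 h, and the median TSC among all tested was 0.51 higher on the log2 scale at 3-4 h than at 17-18 h before that scaling. With TMM, 119 members were called (91.5%), against 81.6% of all tested TSCs and 90.1% of other TSCs without a gene. Calls were lost for 3 of the named sites, all in the block. U:5290341-5290420 had a range of 0.58 (adjusted p = 0.71 by limma), U:5302074-5302294 a range of 1.11 (adjusted p = 0.094) and U:5299021-5299716 a range of 0.94 (adjusted p = 0.65). edgeR and DESeq2 did not call these 3 either. The strongest site kept a call with a range of 1.30 (adjusted p = 0.0059 by limma).

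Together the members held 0.138% of library reads at 0-1 h (95% Wilson interval 0.135 to 0.140) and 0.375% at 3-4 h (0.366 to 0.384). The share was highest at 5-6 h with 0.406% (0.383 to 0.430). It had fallen to 0.0860% at 17-18 h and was lowest at 20-21 h with 0.0677%. All 14 libraries before 14 h were above all 9 later ones, by a cut chosen after the values were seen. With TMM the early and late libraries overlapped (0.129% at 0-1 h and 0.166% at 17-18 h). Over the 23 windows the share fell with time (Spearman's rho = -0.79, Pearson's r = -0.78, two-sided permutation p = 2e-05 for each, adjusted p = 8e-05 over 4 relations). Without the 2 windows farthest from the median, r was -0.89. Windows follow each other in time, which this test does not model. The relation with log10 depth had rho = -0.27 (permutation p = 0.20, adjusted p = 0.40) and r = -0.26 (permutation p = 0.22, adjusted p = 0.29), and r was -0.20 without its 2 farthest libraries.

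The other relations of the 4 had the same windows and no call. The share of reads in TSCs with a gene on these scaffolds had rho = -0.13 with time (permutation p = 0.54, adjusted p = 0.72) and r = -0.30 (permutation p = 0.16, adjusted p = 0.29). For other TSCs without a gene rho was -0.017 (permutation p = 0.94, adjusted p = 0.94) and r was 0.078 (permutation p = 0.72, adjusted p = 0.72). Without the 2 farthest windows their r was -0.45 and -0.11.

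**Figure D5:**
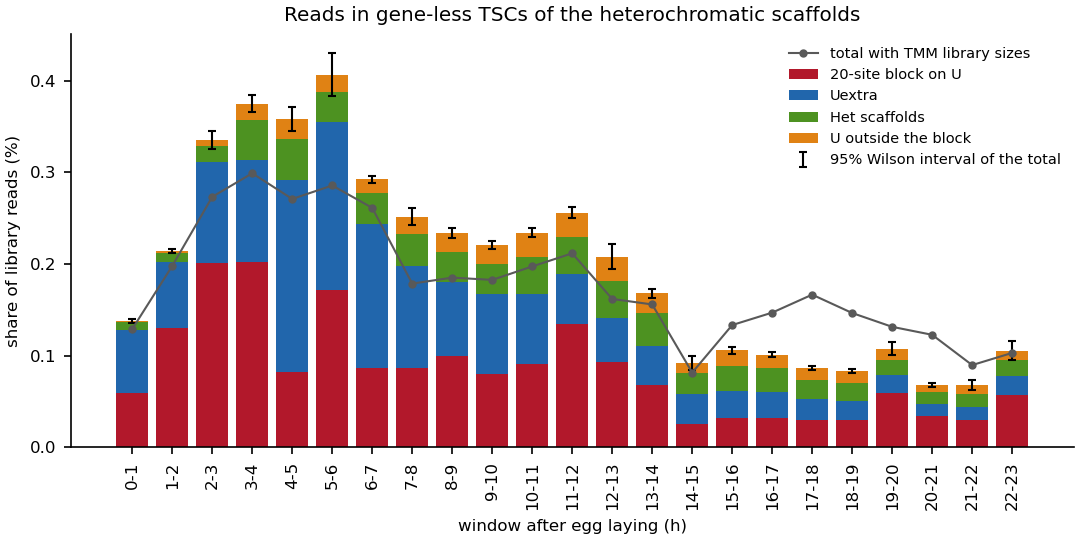
Share of library reads in the members, in percent, in each of the 23 windows, stacked by location, with 95% Wilson intervals of the total and, as a line, the total recomputed with TMM library sizes. The total is highest at 5-6 h with 0.406% and lowest at 20-21 h with 0.0677%, and with TMM the late windows up to 20-21 h lie closer to the early ones.

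By location, levels at 3-4 h relative to 0-1 h were 3.39-fold in the block (95% exact interval of the read ratio 3.25 to 3.54), 1.63-fold on Uextra (1.55 to 1.72), 4.94-fold on the Het scaffolds (4.46 to 5.47) and 17.5-fold on U outside the block (13.7 to 22.5, from 85 reads at 0-1 h). With TMM these folds were 2.89, 1.39, 4.21 and 14.9. The Uextra share was highest at 4-5 h with 0.209% (0.199 to 0.219), where Uextra:9617587-9617602 gave 32.2% of its reads. Without that site the share was 0.142% at 4-5 h and 0.156% at 5-6 h. At that window the block stood at 0.0820% (0.0759 to 0.0886), between 0.202% at 3-4 h and 0.172% at 5-6 h.

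Against the late embryo, levels at 3-4 h were 6.73-fold those at 17-18 h in the block, 5.00-fold on Uextra, 2.12-fold on the Het scaffolds and 1.37-fold on U outside the block. With TMM the ratios were 2.77, 2.06, 0.873 and 0.563, so that the direction flipped for the latter 2 locations. For the Het scaffolds alone, the share of reads had rho = -0.26 with time (permutation p = 0.23) and r = -0.29 (permutation p = 0.18). Each of these folds compares 1 library with 1 library, and its interval covers counting error only.

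Most members stood apart from other TSCs along their scaffolds. On U and Uextra, which hold 104 and 218 members of unplaced sequence, such distances need not be distances in the genome. The median distance to the nearest TSC of any kind was 17122 bp, and 107 members (22.1%) had one within 1000 bp. Within 1000 bp of a TSC with a gene lay 35 members, or 7.22%. Uextra holds no TSC with a gene, and among the 267 members on scaffolds that do, the share was 13.1%. It was 20.2% on the Het scaffolds (33 of 163), against 45.5% of other TSCs without a gene. Of these 35, 34 were on the strand opposite to that gene TSC, 20 of them back to back and 13 facing it. In other TSCs without a gene 87.8% of neighbours were on the opposite strand. Within 250 bp the opposite strand held 19 of 19 and 96.6%. None of the 12 strongest members was near a gene TSC.

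The 35 neighbours belonged to 23 genes and had 4387 reads in all. The one with most reads among those near a named gene was 2RHet:3197954-3198030, with 498 reads and a maximum of 21.0 RPM at 10-11 h, 103 bp from a TSC of Haspin, a kinase that phosphorylates histone H3 in mitosis. 3LHet:458356-458381, with 467 reads and a maximum of 30.5 RPM at 4-5 h, lay 64 bp from a TSC of ND-AGGG, a subunit of respiratory complex I. 2RHet:3180840-3180878, with 401 reads and a maximum of 23.5 RPM at 7-8 h, lay 286 bp from a TSC of uex, a magnesium transporter. These 3 were picked by reads after their values were seen, and all run opposite to the gene.

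Genes that package heterochromatin or act in the piRNA pathway were given by a list of 15, of which all 15 were in the gene table and were called for time dependence by limma, where 92.2% of 9283 tested genes were called. Fitted ranges ran from 1.40 to 6.17 on the log2 scale. The gene of the heterochromatin protein HP1a, FBgn0003607, had 248 RPM at 0-1 h, 645 at 6-7 h and 68.8 at 21-22 h (range 2.84, SE 0.19, limma adjusted p = 8.7e-12). The histone methyltransferase gene egg, which acts in heterochromatin and piRNA silencing, had 66.8 RPM at 0-1 h, 106 at 3-4 h and 14.7 at 20-21 h. Panx, whose product links piRNA-bound Piwi to transcriptional silencing, went from 55.2 RPM at 0-1 h to 97.8 at 5-6 h and was lowest with 6.37 RPM at 17-18 h. Of the 15 fitted curves, 8 were highest at 0-1 h and 7 in a later window. piwi, the nuclear Argonaute of the pathway, fell from 46.0 RPM at 0-1 h to 4.39 at 3-4 h (range 4.96, SE 0.63). del, a partner of the cluster-binding protein Rhino, fell from 82.7 RPM at 0-1 h to 3.29 at 3-4 h (range 6.17, SE 0.72). Over these windows rhi, the gene of Rhino, also fell, from 32.1 to 15.9 RPM, and aub, the gene of Aubergine, from 16.1 to 4.94 RPM. Changes were smaller in AGO3 and moon. AGO3, the Argonaute partner of Aubergine, had 1225 RPM at 0-1 h and 1107 at 3-4 h, and moon, a transcription factor of piRNA clusters, had 11.0 and 11.5 RPM. For cuff, another partner of Rhino, 8.47 RPM at 0-1 h compared with 4.94 at 3-4 h and 21.0 at 5-6 h, where 1 read is 3.49 RPM.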

How the data were processed

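Values came from 23 RAMPAGE libraries of whole embryos, 1 per window. The authors mapped reads with STAR (version not given in the sources used here) to release 5 of the genome (dm3), called TSCs with their own peak caller on the pooled series, and removed peaks over annotated rDNA. The deposited tables of TSCs and genes hold RPM, which the authors scaled to the reads counted in TSCs of each library. All RPM values were whole multiples of the value of 1 read (100% within a tolerance of 0.01), so reads were recovered. Other values, the coordinates of TSCs (printed here from 1), stand in the deposited BED file, as does a score of unstated meaning that was not used. A further deposited table of warped gene profiles was not used. The BED file has 24735 rows, and 5 TSC names outside these scaffolds occur on 2 rows.

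The test of time dependence was an F test in limma 3.58.1 (R 4.3.3, trend and robust) of a natural spline with 4 degrees of freedom on log2(RPM + 1), Benjamini-Hochberg adjusted over all TSCs with at least 100 reads (for genes, over all genes with as many). edgeR 4.0.16 and DESeq2 1.42.0 on recovered reads served as alternatives. Fold changes on this scale understate the change of low sites. Permutation tests used 100000 resamples.

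Named members were the 12 with the highest summed RPM and, among called members, the 4 with the largest fitted range with a fitted maximum at 0-8 h, 8-16 h and 16-23 h. Members within 1000 bp of a gene TSC were also to be named if among the 12, and none was. Likeness was Pearson's r of log2(RPM + 1) over 23 windows among 8839 TSCs with at least 500 reads. Members and lists were chosen with earlier results of these data known. Sequences and promoter motifs were not analysed here, since no genome of release 5 was used.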

Additional observations from a re-analysis of the deposited data

How the results depend on the processing

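Of 130 members tested, between 117 and 129 were called under either pseudocount (0.1 or 5 RPM), splines with 3 or 6 degrees of freedom, TMM, edgeR, DESeq2, without the 3 libraries under 500000 reads, and without each library in turn (125 to 129). Over all tested TSCs the shares called under these settings ran from 81.6% (TMM) to 91.7% (without the 3 shallow libraries). Fewer members met stricter filters, with 103 of 106 called at a maximum of at least 10 RPM (93.1% over all TSCs). Under filterByExpr 13 of 13 were called (90.7% over all TSCs). With libraries thinned to the shallowest and 100 reads left, 17 of 17 were called (87.4% over all TSCs). With no filter 297 of 485 were called (61.2%, against 72.9% of all TSCs), and with thinned libraries 95 of the same 130 members (73.1%, against 74.6%), all among the 127. In both, the members' share was below that of all TSCs, and in the fit as reported above it. Alternatives added after seeing the data were the latter, the removal of single libraries, Uextra alone, and the series without the block, which left 111 calls of 114. Over all tested TSCs in the main fit the share was 90.7%. Of 775 alternative values for the 22 named members, 758 kept the call and 17 lost it, all at 3 block sites. For U:5299021-5299716 the call was also lost with 3 spline degrees of freedom and without any of 7 single libraries (1-2 h, 8-9 h, 9-10 h, 10-11 h, 11-12 h, 15-16 h or 16-17 h).

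The relation of the members' share with time kept its direction and call without the strongest member (rho = -0.79), with TMM (-0.73), without libraries under 500000 reads (-0.78), without the block (-0.78) and on Uextra alone (-0.87), and its rho was -0.86 to -0.77 without single libraries. On the Het scaffolds alone it was not called (rho = -0.26, permutation p = 0.23). For U outside the block the relation was not tested alone. Its reads there were 85 of 8263691 at 0-1 h, 328 of 1823635 at 3-4 h and 972 of 7380404 at 17-18 h. At a maximum of at least 25 RPM, 48 members remained and 38 were regulated. Other TSCs were not classed at that limit, so this count has no share beside it. With at least 10 reads at the maximum, 61, 30 and 5 members were highest at 0-8 h, 8-16 h and 16-23 h. With TMM they were 82, 19 and 29. A neighbouring TSC lay within 250 bp of 12.2% of members, and within 1000 bp of 30.1% of those on the Het scaffolds. The cause of these differences was not tested. No paired analysis was possible because each window has 1 library. The planned motif search was not run. Depth limits values at 5-6 h, 12-13 h and 22-23 h most.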
